A study of Mus musculus with 8 samples.

Results

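Arachidonic acid, a fatty acid held in membrane phospholipids, is turned into leukotrienes and prostaglandins, lipid mediators that act on smooth muscle, vessels and leukocytes. In the leukotriene branch, 5-lipoxygenase (Alox5) works with its membrane partner FLAP (Alox5ap), and its product is carried on by leukotriene A4 hydrolase (Lta4h) to leukotriene B4, a chemoattractant, or by leukotriene C4 synthase (Ltc4s) to the cysteinyl leukotrienes, which constrict the airways. In the prostaglandin branch, the cyclooxygenases COX-1 (Ptgs1, usually constitutive) and COX-2 (Ptgs2, inducible) make prostaglandin H2, which Ptges converts to prostaglandin E2 and the synthases Ptgds and Hpgds convert to prostaglandin D2. Alox15, the 12/15-lipoxygenase of the mouse, makes hydroxy fatty acids and is known for its expression in alternatively activated macrophages. These 10 genes were described here, listed by name and not by a threshold on their values. Each of the 10 had a row among the 23469 genes of the count table.

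The RNA came from lungs of C57BL/6 wild type mice and of mice described as DDAH1-transgenic, both challenged intratracheally with house dust mite extract (HDM) or with PBS. DDAH1 degrades asymmetric dimethylarginine, an inhibitor of nitric oxide synthase. The promoter that drives the transgene, and the age and sex of the mice, were not given in the sources used here. Each challenge was 100 µg of HDM in a volume of 50 µl, or the same volume of PBS, with 3 challenges a week over 3 weeks, and lungs were taken 24 hours after the final one. The 4 groups were PBS-treated wild type (WP), HDM-treated wild type (WH), PBS-treated DDAH1-transgenic (TP) and HDM-treated DDAH1-transgenic mice (TH). Each group is 1 pool of the RNA of 4 mice from which 2 libraries were made, so that n = 2 throughout, every SD is the spread between 2 libraries of 1 pool, and no p-value covers the variation between mice.

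Total counts were 5694928 in the first TH library and between 9633928 and 11929374 in the others. The lung epithelial markers, a check of the tissue, summed to between 21200 and 72200 CPM (counts scaled to the size of the library), and 0 of the 7 were at or under 3 counts in all libraries. Ddah1 itself did not pass the test in either genotype comparison (TP against WP, log2 fold change 0.66, adjusted p = 0.358; TH against WH, -0.32, adjusted p = 0.637; edgeR). Both TP libraries were above both WP libraries (77 and 53.8 against 47.8 and 34.3 CPM). Both TH libraries were below both WH libraries (34.9 and 33.4 against 43.1 and 44.7 CPM). The paper does not state the species of the transgene sequence, and reads here were counted on the mouse gene. It is thus not known whether transgene reads fall on this row. The Ddah1 levels can therefore neither bear out nor contradict the genotype labels, which were used as given. Xist was between 11.3 and 20.8 CPM in the 4 PBS libraries and between 2050 and 3040 CPM in the 4 HDM libraries. Ddx3y, a gene of the Y chromosome, was the reverse, with 58.7 to 69.0 CPM after PBS and 0.179 to 0.301 CPM after HDM. An HDM effect and a difference of sex can therefore not be told apart in either genotype. In whole lung, fewer cells of a type and less RNA per cell cannot be told apart either.

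The start region of Ptgs1 is shown because this gene gave the lowest adjusted p of the 10 genes, and that of Ptges because it alone of the genes with an entry held a match to the letters searched. They are the 250 bases before the start, written from 5′ to 3′ on the strand of the gene, from the RefSeq table of GRCm38.p6, which had an entry for 8 of the 10 genes. The Ptgs1 region is chr2:36230176-36230425 on the plus strand, and the Ptges region is chr2:30903298-30903547 on the minus strand. Both lie inside the annotated span of their gene. Capitals mark TTC and GAA with 4 bases between them, a pattern bound by STAT factors.
Ptgs1: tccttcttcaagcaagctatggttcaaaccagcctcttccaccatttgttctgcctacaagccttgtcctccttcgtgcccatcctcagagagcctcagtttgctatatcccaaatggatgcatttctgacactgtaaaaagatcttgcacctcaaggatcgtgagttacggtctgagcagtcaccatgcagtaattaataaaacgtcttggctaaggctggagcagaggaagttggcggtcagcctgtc
Ptges: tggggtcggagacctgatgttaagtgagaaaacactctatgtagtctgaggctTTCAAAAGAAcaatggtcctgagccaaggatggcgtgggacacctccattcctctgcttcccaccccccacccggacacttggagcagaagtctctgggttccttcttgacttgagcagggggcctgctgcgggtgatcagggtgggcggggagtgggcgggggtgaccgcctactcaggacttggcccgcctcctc
Searched on both strands, neither this pattern, nor TTC and GAA with 3 bases between them, nor TATAAA was in the Ptgs1 window. Among 32851 such windows, the pattern with 4 bases was in 5.85%, that with 3 bases in 7.02% and TATAAA in 12.4%. In Ptges the match lay at -197 to -188 from the start. These are matches of letters only, and the search of genes other than Ptgs1 was added after their values had been seen.

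COX-1 was the synthesis gene with the lowest adjusted p, and it was higher after HDM in wild type mice. Ptgs1, which lies on chromosome 2 (36216742 to 36258593, RefSeq, GRCm38.p6, as for all positions), had 610 and 725 counts in the WP libraries, 1558 and 1435 in WH, 712 and 669 in TP, and 609 and 1036 in TH. Scaled to library size these were 61.3 and 59.2 CPM in WP, 139 and 144 CPM in WH, 71.1 and 70.7 CPM in TP, and 91.3 and 80.3 CPM in TH. Both WH libraries stood above all other libraries, the order of the groups was WP, TP, TH and WH from lowest to highest, and no 2 groups overlapped. Ptgs1 rose 2.35-fold in HDM-treated over PBS-treated wild type mice (log2 fold change 1.23 ± 0.17 SE, adjusted p = 0.000443, edgeR quasi-likelihood test). It was the only one of 9 members tested that was past the threshold of 0.05 in this comparison, in which 6.74% of all genes tested were called (4.44% higher and 2.30% lower). With each library left out in turn the log2 fold change was between 1.19 and 1.26 and the call held.

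**Figure D1:**
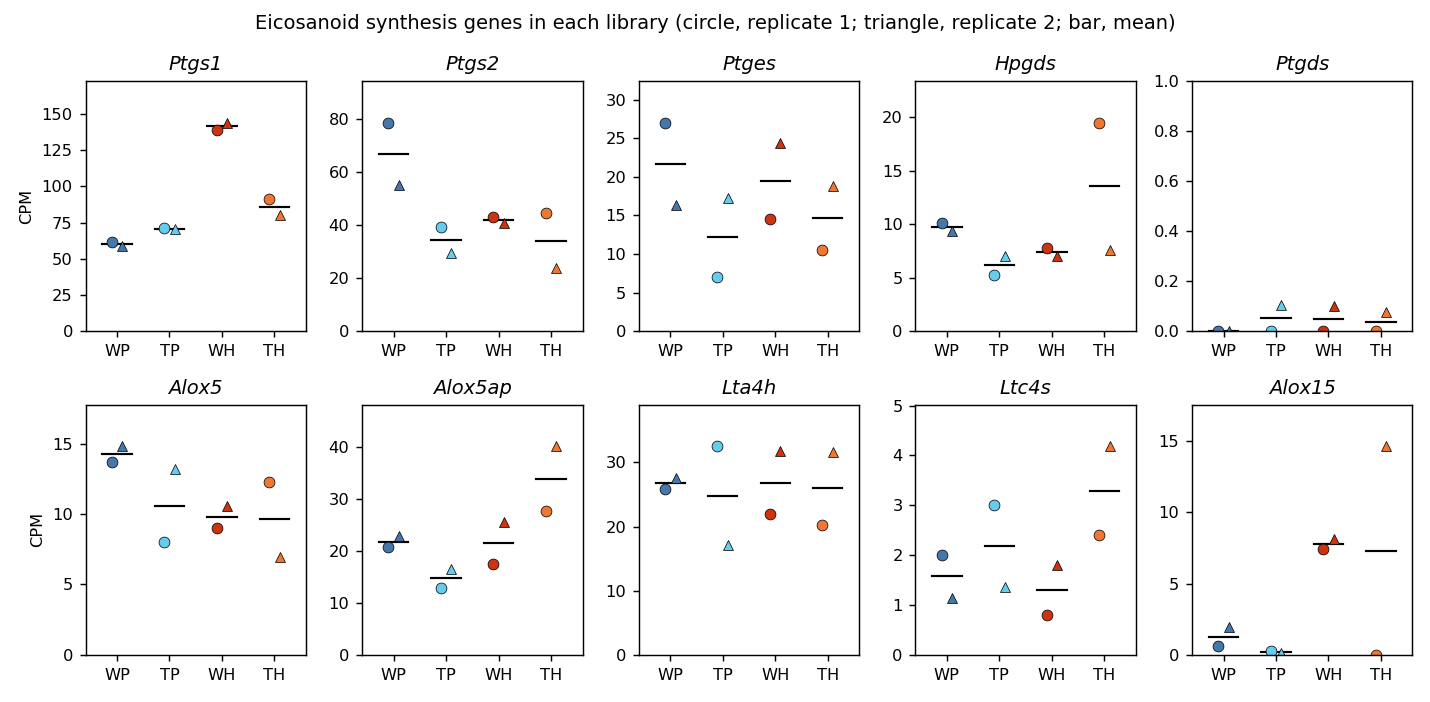
Level of each of the 10 genes in each library, in CPM (linear axes from 0, each gene with its own range). Circles are replicate 1, triangles replicate 2 and bars the mean of 2 libraries. The WH libraries of Ptgs1, at 139 and 144 CPM, stand above the other 6, while Alox15 in TH is 0 in 1 library and 14.6 CPM in the other.

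In DDAH1-transgenic mice the Ptgs1 levels were also higher after HDM in both libraries, but the difference was 1.23-fold and did not pass the test (log2 0.30 ± 0.24 SE, adjusted p = 0.469). Set against HDM-treated wild type mice, the HDM-treated transgenic mice had 0.621 times the Ptgs1 level (log2 -0.69 ± 0.21 SE, adjusted p = 0.132 by edgeR). DESeq2 called this difference (adjusted p = 0.0418), and so did edgeR with all 8 libraries in one fit (adjusted p = 0.0415). The test of the difference between the HDM responses of the 2 genotypes gave log2 -0.96 ± 0.28 SE for Ptgs1 (adjusted p = 0.0953 by edgeR and 0.0214 by DESeq2). After PBS alone the TP and WP levels differed by 1.17-fold (log2 0.22 ± 0.20 SE, adjusted p = 0.778).

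Ptgs2, the inducible isoenzyme on chromosome 1 (150100031 to 150108234), had 782 and 676 counts in WP, 480 and 405 in WH, 394 and 279 in TP, and 297 and 307 in TH. In CPM these were 78.6 and 55.2 in WP, 42.9 and 40.7 in WH, 39.3 and 29.5 in TP, and 44.5 and 23.8 in TH. Both WP libraries were higher than any other library, and the range of TH took in those of WH and TP, which did not overlap with each other. None of the Ptgs2 differences passed the threshold by edgeR. The level in PBS-treated transgenic mice was 0.511 times that of PBS-treated wild type mice (log2 -0.97 ± 0.26 SE, adjusted p = 0.119). DESeq2 called it (adjusted p = 0.0396), as did edgeR with no filter on low counts (adjusted p = 0.0144) and without the first TP library (log2 -1.18, adjusted p = 0.00784). In wild type mice the level after HDM was 0.625 times that after PBS (log2 -0.68 ± 0.24 SE, adjusted p = 0.119), and in transgenic mice it was 1.01 times (log2 0.01 ± 0.37 SE, adjusted p = 0.988).

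The counts of the 2 cyclooxygenases were set against each other within a library. Their coding regions are of nearly the same length (1806 and 1812 bases), but their transcripts are not (2867 and 4453 bases). Xist, which has no coding region, had counts too, so it is not certain that only coding bases were counted. The ratio is therefore one of counts, to be compared between libraries. Per kilobase of transcript, Ptgs1 was at 21.0 CPM and Ptgs2 at 15.0 CPM in WP. The ratio of Ptgs1 to Ptgs2 counts was 0.78 and 1.07 in WP, 3.25 and 3.54 in WH, 1.81 and 2.40 in TP, and 2.05 and 3.37 in TH. COX-1 counts were thus about equal to COX-2 counts in PBS-treated wild type lungs and exceeded them in each of the other 6 libraries. The WP libraries did not overlap with any other group, whereas TH overlapped with both TP and WH.

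**Figure D2:**
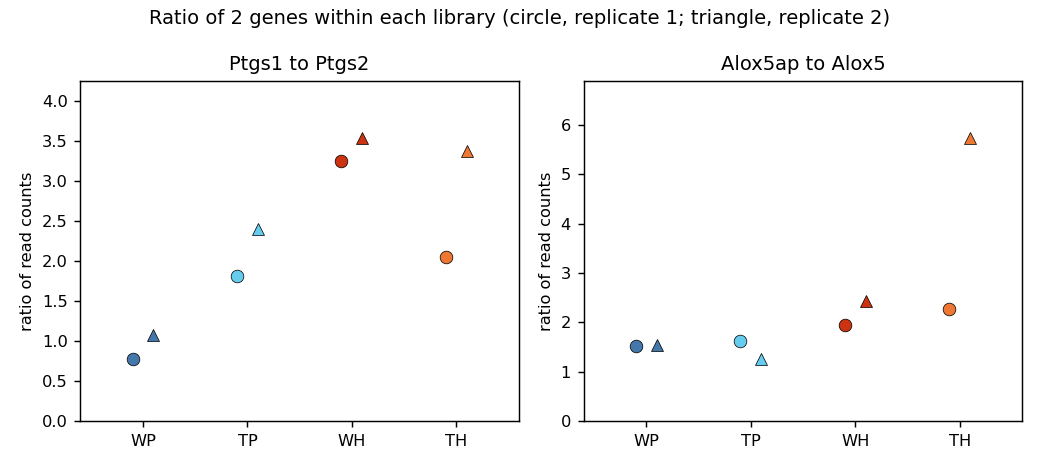
Ratio of the read counts of 2 genes within each library, Ptgs1 to Ptgs2 on the left and Alox5ap to Alox5 on the right (linear axes from 0, with no scaling to library size; circles are replicate 1 and triangles replicate 2). The WP libraries have the lowest Ptgs1 to Ptgs2 ratios, 0.78 and 1.07, and the highest Alox5ap to Alox5 ratio, 5.74, is that of the second TH library.

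In the leukotriene branch, FLAP was called in 1 comparison. Alox5ap, on chromosome 5 (149265004 to 149288153), had 206 and 279 counts in WP, 196 and 255 in WH, 129 and 156 in TP, and 185 and 517 in TH. Its levels were 20.7 and 22.8 CPM in WP, 17.5 and 25.6 CPM in WH, 12.9 and 16.5 CPM in TP, and 27.7 and 40.1 CPM in TH. The TP libraries were the lowest and the TH libraries the highest of the 8. Alox5ap rose 2.34-fold in HDM-treated over PBS-treated transgenic mice (log2 1.23 ± 0.37 SE, adjusted p = 0.0475), the 1 member of 8 tested that was past the threshold there, in a comparison in which 13.8% of all genes were called (8.43% higher and 5.35% lower). A count of 1 in 8 is near that share, so that it says nothing about the members as a set. The call was near the threshold and was lost without the first TP library (log2 1.05, adjusted p = 0.267), without the second (1.41, adjusted p = 0.185), without the second TH library (0.93, adjusted p = 0.191), with RLE normalization (1.19, adjusted p = 0.0526) and with an offset for gene length (0.75, adjusted p = 0.238).

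In wild type mice the Alox5ap levels of the HDM and PBS groups overlapped and the log2 fold change was -0.01 ± 0.34 SE. The HDM responses of the genotypes differed by log2 1.22 ± 0.51 SE for Alox5ap (adjusted p = 0.264). The level in TH was 1.61 times that in WH (log2 0.69 ± 0.36 SE, adjusted p = 0.379), and the level in TP was 0.67 times that in WP (log2 -0.58 ± 0.36 SE, adjusted p = 0.642). In both comparisons the libraries did not overlap.

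The enzyme that FLAP serves did not follow it past the threshold. Alox5 (chromosome 6, 116410071 to 116461178) was at 13.7 and 14.8 CPM in WP, 9.03 and 10.6 CPM in WH, 7.99 and 13.2 CPM in TP, and 12.3 and 6.97 CPM in TH. The WP libraries were the 2 highest, and the other groups overlapped. Its log2 fold change was -0.54 ± 0.42 SE for HDM against PBS in wild type (adjusted p = 0.54) and -0.12 ± 0.55 SE in transgenic mice (adjusted p = 0.922). The ratio of Alox5ap to Alox5 counts was 1.51 and 1.54 in WP, 1.94 and 2.43 in WH, 1.61 and 1.25 in TP, and 2.26 and 5.74 in TH, so that within each genotype the HDM libraries had the higher ratios, and the 2 TH libraries differed from each other more than any other pair.

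The synthases at the end of the leukotriene branch showed no call in any comparison. Lta4h (chromosome 10, 93453396 to 93484896) was at 25.9 and 27.6 CPM in WP, 21.9 and 31.8 CPM in WH, 32.5 and 17.1 CPM in TP, and 20.2 and 31.7 CPM in TH, with overlap between all groups and a largest log2 difference of -0.12 ± 0.34 SE. Ltc4s (chromosome 11, 50236461 to 50238532) was among the lowest, at 2.01 and 1.14 CPM in WP, 0.805 and 1.81 CPM in WH, 3.00 and 1.37 CPM in TP, and 2.40 and 4.18 CPM in TH. These levels rest on 9 to 54 counts per library. Both TH libraries of Ltc4s stood above both WH libraries, but the difference of log2 1.37 had an SE of 1.08 (adjusted p = 0.582).

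Alox15, on chromosome 11 (70344147 to 70390538), had the widest spread of the 10 genes. Its counts were 6 and 24 in WP, 83 and 81 in WH, 3 and 1 in TP, and 0 and 189 in TH. The levels were 0.603 and 1.96 CPM in WP, 7.42 and 8.14 CPM in WH, 0.300 and 0.106 CPM in TP, and 0 and 14.6 CPM in TH. Both WH libraries were above both WP libraries and lay close together, whereas the 2 TH libraries, which come from 1 pool of RNA, were the lowest and the highest of the 8. A count of 0 in the first TH library allows a level of up to 0.450 CPM. In wild type mice Alox15 was 5.95 times higher after HDM (log2 2.57 ± 0.78 SE), which edgeR placed just outside the threshold (adjusted p = 0.0668). DESeq2 (adjusted p = 0.0256), edgeR with no filter on low counts (0.0176) and edgeR without the first WH library (log2 2.64, adjusted p = 0.0319) called it.

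The low-count filter left Alox15 out of the tests of TP against WP and of TH against TP. Both TP libraries were at or under 3 counts, with 4 counts in all. Summed over libraries and scaled to their size, Alox15 was 37.7 times higher in WH than in TP (95% exact counting interval 14.5 to 140.0) and 6.58 times higher in WP than in TP (2.32 to 25.7). The second ratio was 2.94 with the first WP library alone (0.697 to 14.2) and 9.54 with the second alone (3.28 to 37.8). These intervals cover counting error only. In HDM-treated mice the log2 difference between genotypes was -0.03 ± 1.15 SE (adjusted p = 0.993). Its sign and size rested on the TH library used, being 0.93 without the first TH library (adjusted p = 0.608) and -9.16 without the second (adjusted p = 0.000657), a fitted value with no bound since the remaining library held 0 counts.

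The terminal prostaglandin synthases showed no call either. Ptges (chromosome 2, 30889471 to 30931020) was at 27.0 and 16.3 CPM in WP, 14.5 and 24.4 CPM in WH, 6.99 and 17.3 CPM in TP, and 10.5 and 18.8 CPM in TH. Libraries of every pair of groups overlapped, and the largest difference was log2 -0.85 ± 0.44 SE for TP against WP (adjusted p = 0.564), which passed the threshold without the second TP library (log2 -1.63, adjusted p = 0.0446). Hpgds, the haematopoietic prostaglandin D synthase of mast cells and other leukocytes (chromosome 6, 65117293 to 65144981), was at 10.1 and 9.39 CPM in WP, 7.78 and 7.03 CPM in WH, 5.29 and 7.08 CPM in TP, and 19.5 and 7.59 CPM in TH. The first TH library, at 130 counts, was the highest of the 8, and both WP libraries lay above all WH and TP libraries. The difference between TH and TP was log2 1.15 ± 0.60 SE (adjusted p = 0.239). Ptgds, the lipocalin-type prostaglandin D synthase (chromosome 2, 25466709 to 25470110), had 0 counts in 5 libraries and 1 count in the other 3, so that no fold can be given.

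**Figure D3:**
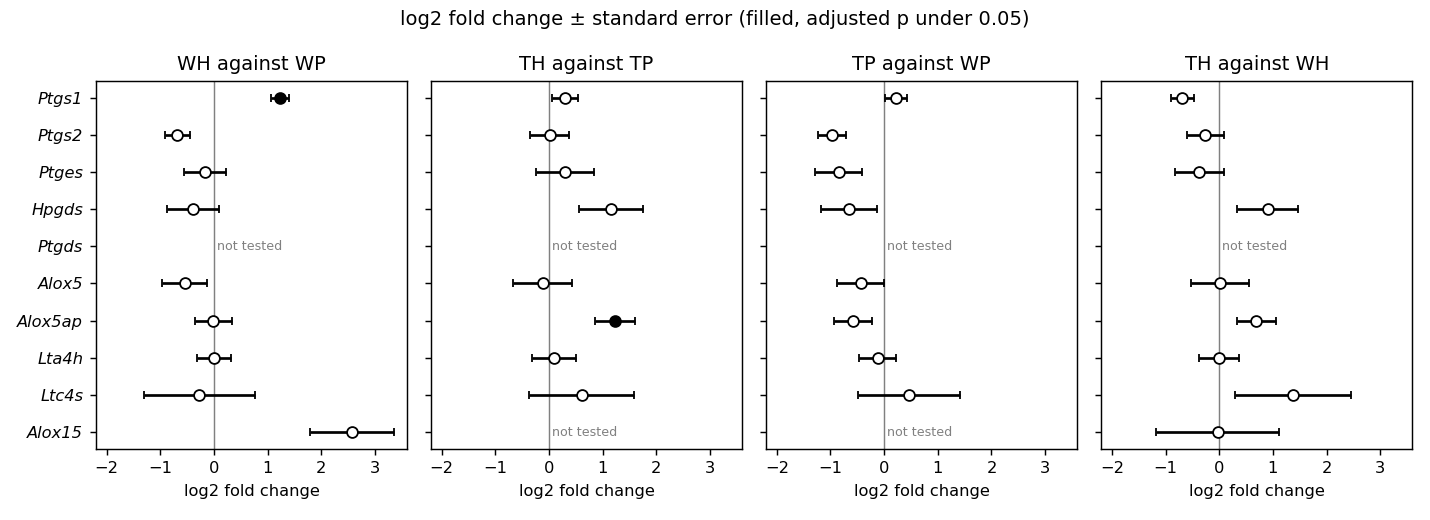
log2 fold change (points) with its standard error (bars) of each gene in the 4 pairwise comparisons, 2 libraries against 2. Filled points passed an adjusted p of 0.05 by edgeR: Ptgs1 in WH against WP (1.23) and Alox5ap in TH against TP (1.23). Genes marked as not tested were removed by the filter on low counts.

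Between genotypes, 0 of the 8 members tested in PBS-treated mice and 0 of the 9 tested in HDM-treated mice passed the threshold by edgeR, beside 0.657% and 2.44% of all genes. At an unadjusted p under 0.05 there was 1 member in each, Ptgs2 after PBS and Ptgs1 after HDM, beside 9.98% and 16.2% of all genes. DESeq2 called the same 1 gene in each. In the test of the difference in HDM response, 0 of 9 members were called by edgeR beside 1.76% of all genes. Of these members, 2 (Ptgs1 and Alox5ap) had an unadjusted p under 0.05, beside 14.7% of all genes, and DESeq2 called 1, Ptgs1. These counts rest on few genes and say nothing about the members as a set. The median log2 fold change of the members was -0.51 in TP against WP, -0.01 in TH against WH, -0.16 in WH against WP and 0.29 in TH against TP, where the medians of all genes tested were 0, 0.01, 0.02 and 0.03. In TP against WP, 6 of the 8 members tested were lower, and in TH against TP, 7 of 8 were higher. TP takes part in both comparisons, and the PBS-treated transgenic libraries had the lowest mean CPM of the 4 groups for Alox5ap, Alox15, Ptges and Hpgds.

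Groups that do not overlap were common with 2 libraries each. In TP against WP this held for 5 of 8 members (Ptgs1 higher, and Alox5, Alox5ap, Ptgs2 and Hpgds lower), beside 40.3% of all genes tested. In TH against WH it held for 3 of 9 (Alox5ap and Ltc4s higher, Ptgs1 lower), beside 48.2%. In WH against WP it held for 5 of 9 (Alox15 and Ptgs1 higher, and Alox5, Ptgs2 and Hpgds lower), beside 49.8%, and in TH against TP for 3 of 8 (Alox5ap, Ptgs1 and Hpgds higher), beside 56.8%. With only 8 or 9 members tested, the differences from these shares rest on few genes and say nothing about the members as a set.

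Levels were compared between genes as CPM per kilobase of coding length, since the paper states that reads were counted in coding regions. Xist, which has no coding region, had 31372 counts in the first WH library. Bases outside coding regions were thus counted for that gene at least, and may have been for others. The order by coding length, given first, holds only where coding bases alone were counted. In PBS-treated wild type lungs Ptges (47.2), Alox5ap (45.0), Ptgs2 (36.9) and Ptgs1 (33.4) led, each within the spread of the next, followed by Hpgds (16.3), Lta4h (14.6), Alox5 (7.05), Ltc4s (3.50) and Alox15 (0.644). After HDM in wild type mice Ptgs1 (78.3) stood apart from Alox5ap (44.6) and Ptges (42.4), which did not differ beyond their spread, and Ptgs2 (23.1) came below them. In PBS-treated transgenic mice Ptgs1 (39.3) led Alox5ap (30.4), and in HDM-treated transgenic mice Alox5ap (70.2) led Ptgs1 (47.5), the ranges being apart in both. Division by the length of the whole transcript was an alternative added after seeing the data. Ptgs1 was then first in all 4 groups, within the spread of Alox5ap in TH, and Ptges fell to places 5 to 7. Ptges has 459 coding bases in a transcript of 3647, and by transcript length it was at 5.94 in WP. Which genes led in WP and TH therefore depended on the length used, whereas Ptgs1 led in WH and TP by both.

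The other genes of the pathway were taken as lists of phospholipases, lipoxygenases, leukotriene-converting enzymes, prostanoid synthases, receptors, and transport and breakdown genes, with 62 genes in all. Those called by edgeR were 2 higher and 2 lower of 45 tested in WH against WP, and 6 higher and 4 lower of 44 in TH against TP. Between genotypes they were 0 higher and 1 lower of 42 after PBS, 1 higher and 0 lower of 48 after HDM, and 2 positive and 1 negative of 50 in the difference of HDM responses. All genes tested were called at 6.74%, 13.8%, 0.657%, 2.44% and 1.76% in the same order. The medians of the pathway genes were 0.06, 0.29, -0.11, 0.06 and 0.11 on the log2 scale, again in that order.

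Downstream of the cyclooxygenases, thromboxane synthase and the prostacyclin receptor were higher after HDM in both genotypes. Tbxas1, which makes thromboxane A2, was at 2.41 and 3.19 CPM in WP, 16.3 and 9.04 CPM in WH, 1.8 and 2.01 CPM in TP, and 10.2 and 18.0 CPM in TH. It rose 4.50-fold in wild type (log2 2.17 ± 0.58 SE, adjusted p = 0.0377) and 7.47-fold in transgenic mice (log2 2.90 ± 0.64 SE, adjusted p = 0.0109). Ptgir, the receptor of prostacyclin, was at 4.62 and 3.59 CPM in WP, 12.7 and 26.2 CPM in WH, 0.899 and 2.43 CPM in TP, and 38.1 and 13.6 CPM in TH. It rose 4.73-fold in wild type (log2 2.24 ± 0.50 SE, adjusted p = 0.0144) and 15.8-fold in transgenic mice (log2 3.98 ± 0.68 SE, adjusted p = 0.00278). For both genes the HDM libraries lay above all PBS libraries. The call in wild type was lost without 1 library in 3 of 4 cases for Tbxas1 (adjusted p of 0.0892 to 0.14) and in 2 of 4 for Ptgir (0.0595 and 0.0904), and that of Ptgir in transgenic mice was lost without the first TP library (0.0716). In transgenic mice that of Tbxas1 was lost without either TP library or the second TH library (0.0746 to 0.0949).

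Of the 6 transport and breakdown genes, all tested, 1 was called after HDM in wild type (Hpgd, lower) and 3 in transgenic mice (Hpgd and Slco2a1 lower, Cyp4f18 higher), with median log2 fold changes of -0.16 and -0.11. Hpgd, the dehydrogenase that inactivates prostaglandin E2 in the lung, was abundant, at 544 and 557 CPM in WP, 292 and 256 CPM in WH, 628 and 626 CPM in TP, and 442 and 360 CPM in TH. It fell to 0.497 times in HDM-treated wild type mice (log2 -1.01 ± 0.13 SE, adjusted p = 0.000156) and to 0.651 times in HDM-treated transgenic mice (log2 -0.62 ± 0.18 SE, adjusted p = 0.0405), the second call being lost without either TP library (adjusted p = 0.246 and 0.287). Slco2a1, the transporter that takes prostaglandins up for this breakdown, was at 633 and 700 CPM in WP, 588 and 558 CPM in WH, 746 and 887 CPM in TP, and 316 and 373 CPM in TH, and fell to 0.427 times in transgenic mice after HDM (log2 -1.23 ± 0.18 SE, adjusted p = 0.00102). That call was lost without the second TP library (adjusted p = 0.0731). The TH libraries of Slco2a1 were the lowest of the 8. Cyp4f18, which oxidises leukotriene B4, rose 5.82-fold in transgenic mice (log2 2.54 ± 0.62 SE, adjusted p = 0.0182), a call lost without either TP library (adjusted p = 0.096 and 0.116). It was at 2.41 and 2.78 CPM in WP, 6.35 and 6.43 CPM in WH, 2.3 and 2.22 CPM in TP, and 12.6 and 13.4 CPM in TH.

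The remaining calls after HDM in transgenic mice were those of Pla2g7, a secreted phospholipase A2 that hydrolyses platelet-activating factor, and of Plaat3, Dpep1, Ptgfr and Fpr2. Pla2g7 was at 23.4 and 27.9 CPM in WP, 55.4 and 42.3 CPM in WH, 5.39 and 3.07 CPM in TP, and 51.8 and 43.8 CPM in TH. The TP libraries were far below the others, and Pla2g7 was 6.09-fold lower in TP than in WP (log2 -2.61 ± 0.44 SE, adjusted p = 0.00491, but 0.0569 with the replicate block) and rose 11.5-fold from TP to TH (log2 3.52 ± 0.42 SE, adjusted p = 0.000255). Plaat3, a phospholipase A/acyltransferase, rose 3.25-fold from TP to TH (log2 1.70 ± 0.34 SE, adjusted p = 0.00684). Dpep1, a dipeptidase that converts leukotriene D4 to leukotriene E4, fell to 0.371 times (log2 -1.43 ± 0.22 SE, adjusted p = 0.00164). Both calls were lost when either TP library was left out, with adjusted p of 0.104 and 0.124 for Plaat3 and of 0.0573 and 0.073 for Dpep1. Ptgfr, the receptor of prostaglandin F2α, fell to 0.307 times (log2 -1.70 ± 0.40 SE, adjusted p = 0.0162), a call lost without either TP library (adjusted p = 0.0978 and 0.14) and with the gene-length offset (log2 -1.29, adjusted p = 0.0654).

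Fpr2, a receptor of lipoxin A4 and of chemotactic peptides, was at 18.3 and 13.8 CPM in WP, 3.75 and 2.81 CPM in WH, 7.99 and 6.77 CPM in TP, and 21.0 and 21.5 CPM in TH. After HDM it was thus low in wild type and high in transgenic libraries, with no overlap. It fell to 0.206 times in wild type mice (log2 -2.28 ± 0.50 SE, adjusted p = 0.0133) and was 6.60 times higher in TH than in WH (log2 2.72 ± 0.50 SE, adjusted p = 0.0149). The second call was lost without either WH library (adjusted p = 0.205 and 0.185) and with the gene-length offset (2.36, adjusted p = 0.0544), and the first without the first WP library (-2.07, adjusted p = 0.117). In transgenic mice Fpr2 rose 2.92-fold after HDM (log2 1.55 ± 0.45 SE, adjusted p = 0.0394), a call lost without any 1 of the 4 libraries (adjusted p of 0.0782 to 0.218) and with the gene-length offset (log2 1.00, adjusted p = 0.182).

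**Figure D4:**
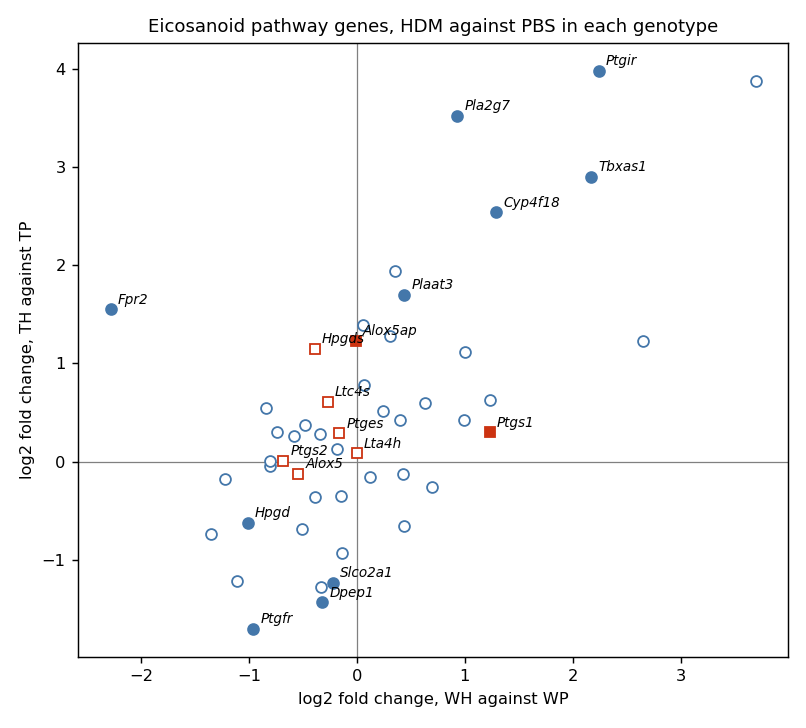
log2 fold change of HDM against PBS in wild type mice (horizontal) and in DDAH1-transgenic mice (vertical) for the 50 pathway genes tested in both comparisons, which share no library. Squares are the 8 members and circles the other genes, filled where edgeR called them in either comparison. Ptgs1 lies to the right (1.23, 0.30), Alox5ap on the vertical axis (-0.01, 1.23) and Fpr2 at the upper left (-2.28, 1.55).

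The gene profiles nearest to Ptgs1 over the 8 libraries, by the root mean square difference of centred log2 CPM, were Acsl4 (0.12), Gclc (0.14), Acta1 (0.15), Me1 (0.15) and Snx7 (0.16). Acsl4 is an acyl-CoA synthetase that prefers arachidonic acid, and Gclc is the catalytic subunit of the first enzyme of glutathione synthesis. Acsl4 had a mean of 239 CPM in WP, 540 in WH, 308 in TP and 340 in TH. For Alox5ap they were Ufsp2 (0.13), Fbxl22 (0.15), Dennd6b (0.17), Col16a1 (0.17) and Dad1 (0.18). These too were highest in TH and lowest in TP (Ufsp2 at 17.0 and 7.80 CPM), which follows from how they were chosen. Any link of these genes to Ptgs1 or Alox5ap was not tested.

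Markers of cells in which these genes are known moved with the groups. The 10 macrophage markers summed to 627 to 650 CPM in WP, 11400 to 12200 in WH, 743 to 775 in TP and 5140 to 6550 in TH, with 8 of 10 called higher in WH against WP and 9 of 10 in TH against TP. Much of this sum was Chil3, with 3807 to 5093 counts in the PBS libraries and 21812 to 99833 in the HDM libraries. The 7 platelet and megakaryocyte markers summed to 101 to 127 CPM in WP, 34.7 to 36.5 in WH, 117 to 143 in TP and 27.1 to 40.0 in TH. Most of this sum in the PBS libraries was Ppbp (77.6 to 123 CPM), the 1 marker called, lower after HDM in both genotypes. Of 6 markers tested, 5 had a negative log2 fold change in wild type and 4 in transgenic mice. Without a call, Gp9 was at -3.36 and -2.79, Gp1ba at -2.34 and -3.24, and Itga2b at -3.03 and -1.87. Pf4 had log2 fold changes of 0.32 and 1.02 that did not pass the test either. The macrophage sums were higher in WH than in TH, and Chil3 alone had means of 9080 and 3820 CPM there. Of the 10 markers, 2 were called lower in TH and 9 had a negative log2 fold change, while Adgre1 was higher there without a call (mean 25.2 CPM in WH and 51.1 CPM in TH). Ptgs1 was higher in WH than in TH, and from TP to TH it rose 1.23-fold without a call. Any part of macrophages in the Ptgs1 levels was not tested.

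The 8 eosinophil markers summed to 700 to 737 CPM in WP, 909 to 913 in WH, 734 to 804 in TP and 730 to 740 in TH, with 2 of 7 tested called higher in WH against WP (Ear2 and Ccr3) and 1 of 6 in TH against TP (Prg2). Most of this sum was Cd24a (545 to 676 CPM), which other cells express too, and Ccr3 in WH was at 12.3 and 1.61 CPM. Epx, the eosinophil peroxidase, had 0 counts in 7 libraries and 1 in the other. Between the first and the second TH library, where Alox15 was at 0 and 14.6 CPM, the markers did not move together. Both libraries come from 1 pool of RNA, so differences between them do not tell of cell content. Prg2 (5.99 and 11.2 CPM) and Cd24a (545 and 571) were higher in the second. Siglecf (18.4 and 9.76), Ccr3 (3.3 and 0), Il5ra (4.94 and 3.95), Ear1 (47.8 and 46) and Ear2 (105 and 98.4) were lower there. The 9 mast cell and basophil markers summed to 214 to 228 CPM in WP, 160 to 161 in WH, 277 to 309 in TP and 133 to 154 in TH, with 0 of 4 tested called in WH against WP and 2 of 3 tested called lower in TH against TP. Nearly all of this sum was Kit (68.3 to 153 CPM) and Gata2 (49.2 to 153 CPM), the 2 called, which other lung cells also express. Of the mast cell and basophil genes proper, Cpa3 was between 0 and 8.22 CPM and Cma1, Tpsb2, Mcpt4, Ms4a2, Mcpt8 and Fcer1a were each between 0 and at most 3.31 CPM, so that these markers say little of such cells. The 8 neutrophil markers found in the table summed to 436 to 469 CPM in WP, 248 to 251 in WH, 184 to 211 in TP and 267 to 270 in TH, with 5 of 8 called lower in TP against WP and 4 lower and 1 higher in WH against WP. Csf3r and Cxcr2 had the highest means of these markers in WP (138 and 140 CPM). The marker called higher was Cd177 (mean 13.3 CPM in WP and 34.9 CPM in WH). Ptgs2 and Alox5 were highest in the WP libraries too, and any part of neutrophils in this was not tested. Mean Ptgs2 was 41.8 CPM in WH, 34.4 CPM in TP and 34.1 CPM in TH, and mean Alox5 was 9.79, 10.6 and 9.63 CPM in the same order.

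**Figure D5:**
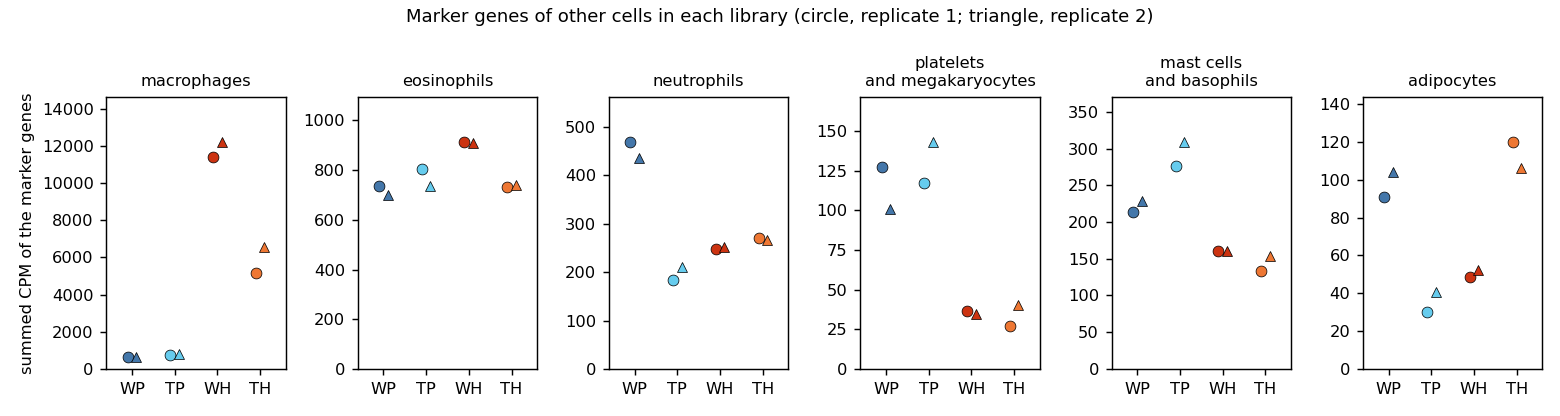
Summed CPM of the marker genes of 6 other cell types in each library (linear axes from 0; circles are replicate 1 and triangles replicate 2). Macrophage markers are higher in the 4 HDM libraries, the platelet marker sum, mostly Ppbp, is lower there, and neutrophil markers are highest in WP, at 436 to 469 CPM.

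The marker sums of adipocytes and heart muscle also differed between pools. The 7 adipocyte markers summed to 90.7 to 104 CPM in WP, 48.5 to 52.1 in WH, 30.0 to 40.8 in TP and 106 to 120 in TH, with 1 called higher (Fabp4) and 1 lower (Cidec) in TH against TP. Fabp4 made up 101 CPM of the sum in the first TH library, while Adipoq was at 2.7 CPM there and at 13.5 CPM in the second, so that the markers did not move together. The 7 heart muscle markers summed to 307 to 361 CPM in WP, 208 to 221 in WH, 155 to 193 in TP and 93.0 to 106 in TH. The part of these cells and of sex in the results on the 10 genes was not tested.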

How the data were processed

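The 8 lung libraries were grouped by their labels into 2 genotypes, each after PBS or HDM. Per the labels and the methods, the authors amplified the RNA (SPIA), used CASAVA 1.8 and bcl2fastq, aligned reads of 50 bases to mm10 (GRCm38) with TopHat (version not given in the sources used here), summed them over coding regions with ShortRead, and deposited raw read counts for 23469 genes with Entrez identifiers. RefSeq (GRCm38.p6) named 23372 of these.

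Each comparison was tested with edgeR 4.0.16 (R 4.3.3; quasi-likelihood, TMM, filterByExpr with a minimum count of 10) on its own 4 libraries, and the difference between HDM responses on all 8, with Benjamini-Hochberg adjustment over all genes tested and a threshold of 0.05. SE is the log2 fold change divided by the square root of F. CPM were scaled over all 8 libraries together. The upper limit of a count of 0 was 3 counts, for counting error only. The steps were tested on simulated data.

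Of the 10 genes all were named, of the other pathway genes at most 5 called per comparison by adjusted p, and for members called after HDM the 5 nearest profiles. The further 5 called in TH against TP, the marker genes given by name and the Ptges window were chosen after their values were seen. Members and lists were chosen with earlier results of these data known. Alternatives were DESeq2 1.42.0, a replicate block, RLE, tests without the filter on low counts, a gene-length offset (loess, span 0.5, 21145 genes with a GENCODE M21 length), all 8 libraries in one fit, and each library left out, where a lone library was assumed to vary like the other group. A change that rounds to 0.00 was given no direction. Reads of 50 bases cannot be told apart over 9.83% of the Ltc4s transcript (shared with Gm26542), 7.74% of Alox5ap (Gm19719), 3.58% of Ptgs1 (Gm43621) and 0.671% of Hpgds. Libraries of one group differed beyond counting noise and none were identical.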

Additional observations from a re-analysis of the deposited data

Results flagged for a closer look

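For 3 genes of the pathway outside the 10 synthesis genes, the genotype difference after HDM differed from that after PBS by a test of the difference itself (edgeR, all 8 libraries). It was log2 3.80 ± 0.66 SE for Fpr2 (adjusted p = 0.00352), which was lower in TP than in WP and higher in TH than in WH. It was log2 2.56 ± 0.48 SE for Pla2g7 (adjusted p = 0.0066), whose TP libraries were at 5.39 and 3.07 CPM and all others at 23.4 CPM or more. It was log2 -1.03 ± 0.21 SE for Slco2a1 (adjusted p = 0.0117), which was higher in TP than in WP and lower in TH than in WH. The Slco2a1 result was lost with the gene-length offset (-0.71, adjusted p = 0.117), without the first WP library (-0.96, adjusted p = 0.0938) and without the second TP library (-0.90, adjusted p = 0.0861).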

How the results depend on the processing

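The number of the 10 genes called was 1 with DESeq2 and with no low-count filter in TP against WP (0 by the test used; 0 to 1 with 1 library left out), 1 with DESeq2 and with all 8 libraries in one fit in TH against WH (0; 0 to 1), 2 with DESeq2 and with no low-count filter in WH against WP (1; 1 to 2), 0 with RLE and with the gene-length offset and 2 with no low-count filter and with all 8 libraries in one fit in TH against TP (1; 0 to 2; the second gene was Alox15, which the filter had left out), and 1 with DESeq2 in the difference of HDM responses (0). Signs turned only for differences that were not called. In TH against WH, Alox5 was -0.04 with the replicate block and -0.03 in one fit. In TH against TP, Ptgs2 was -0.02 with RLE, DESeq2 and one fit and -0.04 with the replicate block, and with the gene-length offset Ltc4s was -0.29 and Lta4h -0.06. In the difference of responses Lta4h was -0.04 with the offset. The cause was not tested.

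With 1 library left out, log2 values that turned ranged as follows. In TP against WP these were Ltc4s (-0.19 to 0.93) and Lta4h (-0.65 to 0.28). In TH against WH these were Alox5 (-0.47 to 0.38), Alox15 (-9.16 to 0.93), Lta4h (-0.36 to 0.29), Ptgs2 (-0.79 to 0.14) and Ptges (-0.84 to 0.06). In WH against WP these were Alox5ap (-0.33 to 0.23), Ltc4s (-0.97 to 0.20) and Ptges (-0.59 to 0.25). In TH against TP these were Alox5 (-0.60 to 0.29), Lta4h (-0.30 to 0.61), Ptgs2 (-0.53 to 0.39) and Ptges (-0.23 to 1.09). In the difference of responses these were Alox5 (-0.06 to 0.80), Alox15 (-6.68 to 3.51), Lta4h (-0.32 to 0.61) and Ptges (-0.07 to 1.23).

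Same-numbered libraries did not deviate together (correlations of -0.021 to 0.032 over genes), so that they share only a number. With the replicate block, Ptgs1 in WH against WP was 1.23 (adjusted p = 0.000162), Alox5ap in TH against TP was 1.22 (0.0199), and of the named genes Pla2g7 in TP against WP was past the threshold no longer (-2.64, adjusted p = 0.0569).

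Over all genes the calls in TP against WP were 98 (223 with DESeq2, 306 with no filter, 46 with the replicate block, 75 to 432 with 1 library left out). In TH against WH they were 370 (922, 1055, 625, 169 with the offset, 771 in one fit, and 6 to 1595). In WH against WP they were 1020 (1588 with no filter, 652 to 1661), in TH against TP 2079 (277 to 2676), and in the difference of responses 279 (680 with DESeq2, 675 with no filter, 138 to 723). Low counts limit Ptgds and Ltc4s, with 54 or fewer in each library, and Alox15 in the PBS libraries, with 24 or fewer. In TH, Alox15 held 0 counts in 1 library and 189 in the other, both from 1 pool. The cause of that gap was not tested.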
